A study of Homo sapiens with 18 samples.

Results

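The genes described here are the microRNA genes that gave a signal on an expression array of HEK cells, an established human embryonic kidney line. They were chosen from their names and their level. A probe set qualified if its gene symbol began with MIRLET7 or with MIR and a digit, if the symbol was not a host gene symbol ending in HG, and if at least 3 of 18 arrays lay above 5.6 on the log2 scale. One probe set was kept per symbol, the one with the highest mean. The rule kept 295 genes of the 1072 microRNA symbols on the array, or 27.5%, and they made up 295 of the 9686 genes tested in all. The values that chose them are the levels themselves, so the levels are given as a description.

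The series holds 6 lines with 3 arrays each, numbered replicate 1, 2 and 3. The lines labelled ATXN1L-KO were A10, A30 and B21, and the ATXN1L wild-type lines were parental cells and 2 CRISPR control lines, N4 and N8. The labels state CRISPR treatment, puromycin selection and isolation of single colonies for every sample, the parental cells included, so each edited line stands for 1 clone, and all were kept in DMEM with 10% FBS. Total RNA was extracted with a Qiagen kit made to retain short RNA. ATXN1L is a partner of the transcriptional repressor CIC, and the comparison asks how expression differs where ATXN1L was edited.

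MicroRNAs are cut from longer transcripts. The enzyme DROSHA with its partner DGCR8 frees a hairpin in the nucleus, XPO5 exports it, DICER1 trims it, and an Argonaute protein carries one strand to messenger RNAs that pair with its seed, the bases at its 5′ end. Many hairpins lie in introns of protein-coding genes or in long non-coding host transcripts, and neighbouring hairpins are often cut from one transcript. An array for whole transcripts can bind the host or precursor transcript as well as the hairpin, and the probe positions were not used here, so a value below is the signal of a microRNA gene's probe set and not the amount of the mature microRNA.

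Of the 295 genes, 246 matched a hairpin entry in the RefSeq tables for GRCh38.p14. The sequences below are the mature microRNAs of the genes on which the results turn, with the genes that share their seed or lie beside them. Capitals mark the seed, bases 2 to 8. The first is from MIR4521, which leads the comparison of ATXN1L genotypes.
hsa-miR-4521: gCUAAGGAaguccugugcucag
The hairpin of MIR4521 lies at chr17:8186945-8187004 on the plus strand and has 41.7% G and C. The next pair shares a seed, and its hairpins lie at chrX:45747015-45747124 (MIR222) and chrX:45746157-45746266 (MIR221), both on the minus strand.
hsa-miR-222-3p: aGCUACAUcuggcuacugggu
hsa-miR-221-3p: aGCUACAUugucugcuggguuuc
The let-7 microRNAs, known as brakes on growth and on stem cell factors such as LIN28B and HMGA2, share another seed. The hairpins of MIRLET7A1, MIRLET7F1 and MIRLET7D lie in this order on the plus strand of chromosome 9, from chr9:94175957-94176036 over chr9:94176347-94176433 to chr9:94178834-94178920, and MIR98 lies apart from them on chromosome X.
hsa-let-7f-5p: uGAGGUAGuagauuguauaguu
hsa-let-7d-5p: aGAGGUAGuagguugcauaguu
hsa-let-7a-5p: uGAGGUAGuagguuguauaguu
hsa-miR-98-5p: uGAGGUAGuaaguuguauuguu
The miR-181 genes share a seed from different chromosomes, with MIR181B1 at chr1:198858873-198858982 on the minus strand, and MIR181C and MIR181D side by side on chromosome 19.
hsa-miR-181b-5p: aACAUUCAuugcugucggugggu
hsa-miR-181c-5p: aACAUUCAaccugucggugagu
hsa-miR-181d-5p: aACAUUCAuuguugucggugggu
MIR218-1 lies inside SLIT2, which encodes an axon guidance ligand, and its hairpin is at chr4:20528275-20528384 on the plus strand.
hsa-miR-218-5p: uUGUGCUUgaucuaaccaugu
A last set is shown because neighbours with one seed were measured apart. MIR15A (chr13:50049119-50049201) and MIR16-1 (chr13:50048973-50049061) lie next to each other on the minus strand in the non-coding gene DLEU2.
hsa-miR-15a-5p: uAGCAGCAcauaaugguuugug
hsa-miR-16-5p: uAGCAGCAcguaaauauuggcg

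The microRNA genes were dim and variable next to the other genes. Their mean level over the 18 arrays had a median of 6.33 (log2, quartiles 5.83 and 6.83), and the median over all 9686 genes tested was 7.16. A mean above 7 was reached by 62 of the 295 members, against 5209 of the 9686 genes tested. The SD between arrays of a line had a median of 0.21 for the members and 0.12 for all genes tested. The brightest were MIR4737 at 11.07, MIR3143 at 8.85, MIR574 at 8.77, MIR3907 at 8.58 and MIR3619 at 8.51, and the dimmest were MIR1224 at 5.16, MIR23C at 5.22 and MIRLET7F1 at 5.23. These levels say nothing of the order of the microRNAs themselves, since each probe set binds with its own strength.

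The threshold cut through a dense range. All 18 arrays were above 5.6 for 183 members, only 3 to 5 arrays for 31, and 48 members had a mean at or below it. Just inside, with 3 arrays above 5.6, lay MIR105-1 and MIR4468 at means of 5.35, MIR1286 at 5.38 and MIR518B at 5.39. Just outside, with 2 arrays, lay MIR744 at 5.41, MIR3116-1 at 5.40, MIR4635 at 5.39 and MIR1911 at 5.36. MIR1237, MIR619, MIR518B and MIR1286 passed on arrays of KO-labelled lines alone, MIR2278 and MIR1224 on wild-type arrays alone, and MIR454 on replicate 1 arrays alone, so a difference in those genes is in part set by the rule. The members' hairpins had a median of 58.7% G and C (246 hairpins), and those of the microRNA genes below the threshold 44.9% (638 hairpins). As background, base composition affects how strongly a probe binds, and its part in which genes passed was not tested.

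The arrays themselves were alike in scale, with medians of 5.09 to 5.18. HEK cells are known to express kidney and neural markers. Of 9 genes listed for HEK cells, 5 had a named probe set. KRT18 averaged 9.67, VIM 8.76, LHX1 6.78, KRT8 6.50 and PAX2 5.55, the last just below the threshold. NEFL, NEFM, INA and CDH2 had none, so neural identity was not examined. KRT18 was lower in replicate 1 than in replicates 2 and 3 by −0.40 ± 0.05 (SE, limma adjusted p = 0.000451), and VIM, LHX1, KRT8 and PAX2 were not called there. The defining genes of leukocytes, endothelial cells and fibroblasts were dim where they had a named probe set, with means of 2.27 to 5.33 in 6 genes. For leukocytes this rests on LYZ, 1 of 5 genes listed. The brightest, the fibroblast gene LUM, differed by line. Against the wild-type lines it was higher in B21 (0.70 ± 0.11, limma adjusted p = 0.000275) and lower in A30 (−0.34 ± 0.11, adjusted p = 0.0206). ATXN1L itself was at 7.37, 7.39 and 7.48 in lines A10, A30 and B21, and at 7.11, 7.17 and 7.21 in the parental, N4 and N8 lines. Its genotype difference was 0.25 ± 0.08 (SE) with a limma adjusted p of 0.468. Line by line it was called higher in A30 (0.22 ± 0.07, limma adjusted p = 0.016) and B21 (0.32 ± 0.07, adjusted p = 0.00312), and A10 was at 0.20 ± 0.07 (adjusted p = 0.0654). No label states which stretch was edited, so this signal cannot check the genotypes, and lines go by their labels. In bulk RNA, fewer cells with a transcript and less of it per cell cannot be told apart.

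Among the comparisons run, that of replicate 1 with replicates 2 and 3 called the most microRNA genes. With the line as a term, limma called 39 members higher and 8 lower in replicate 1 than in replicates 2 and 3, at an adjusted p under 0.05 over all genes tested. That is 13.2% and 2.71% of the members, against 8.74% and 9.81% of all 9686 genes in the same directions. Calls were mostly upward among the members and about even over all genes, and the members' median difference was −0.02 and that of all genes −0.01. Called or not, 25 members (8.47%) were higher in replicate 1 in all 6 lines, against 8.13% of all genes, and 14 (4.75%) were lower in all 6, against 9.23%. Every line has all 3 replicate numbers. The labels do not say what a replicate number stands for, so what replicate 1 arrays share, and whether replicates are separate cultures, is unknown. The p-values measure the spread between these arrays. Between replicates 2 and 3, limma called 0 members and 0 genes (0% of all). At an unadjusted p under 0.05 there were 42 members (14.2%) and 726 genes (7.5%). The median difference of replicate 2 from replicate 3 was 0.052 over the members and −0.025 over all genes. Of the 39 higher members, 23 were higher in replicate 1 in all 6 lines, 15 in 5 lines and 1 in 4 lines, and their differences ran from 0.18 to 1.03. Of the 8 lower members, 7 were lower in all 6 lines, with differences from −0.19 to −0.43.

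MIR218-1 had the smallest p. Its 6 replicate 1 arrays ran from 6.62 over a median of 7.74 to 7.87, and its 12 arrays of replicates 2 and 3 from 5.98 over 6.94 to 7.42. The lowest replicate 1 array was that of A30, and the other 5 lay above every array of replicates 2 and 3. The difference was 0.70 ± 0.08 (SE, limma adjusted p = 0.000215), or 1.63-fold, and it had the same sign in 6 of 6 lines. MIR181B1, whose microRNA is studied in lymphocyte development, ran from 6.17 over 6.46 to 6.64 in replicate 1, and from 5.08 over 5.86 to 6.12 in replicates 2 and 3. Its 2 sets of arrays did not overlap, and it differed by 0.67 ± 0.08 (limma adjusted p = 0.00041).

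MIRLET7F1, one of the dimmest members, was also higher in replicate 1. It was at 6.95 in replicate 1 of A10, against 5.00 and 5.36 in its replicates 2 and 3. The same arrays of A30 gave 5.34 against 4.44 and 5.39, and those of B21 gave 4.84 against 3.27 and 4.34. In the wild-type lines, replicate 1 was at 6.51 against 5.61 and 5.66 in the parental cells, at 6.38 against 5.04 and 5.42 in N4, and at 5.49 against 4.38 and 4.74 in N8. Replicate 1 was thus the highest array in 5 of the lines, and in A30 it lay 0.05 below replicate 3. The difference was 1.03 ± 0.13 (SE, limma adjusted p = 0.000439), or 2.04-fold. Of its 12 arrays of replicates 2 and 3, 10 lay below 5.6, so without replicate 1 it would have missed the 3 arrays that the rule asks for. Its call is thus in part set by the rule, and the size of this difference is uncertain.

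MIR222, whose microRNA is known to repress the cell cycle inhibitor CDKN1B, was also higher in replicate 1, which gave 6.23, 7.65 and 7.01 in A10, A30 and B21, against 5.37 to 6.39 in their other 6 arrays. In the wild-type lines it gave 6.67, 6.01 and 6.78 in the parental, N4 and N8 cells, against 5.51 to 5.91 in the other 6 arrays. The highest value in each line was that of replicate 1, with the smallest gap to the next in A10. The difference was 0.85 ± 0.13 (SE, limma adjusted p = 0.00126), or 1.81-fold. MIR4521, by contrast, differed by −0.06 ± 0.18 over the replicate numbers (limma adjusted p = 0.841).

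**Figure D1:**
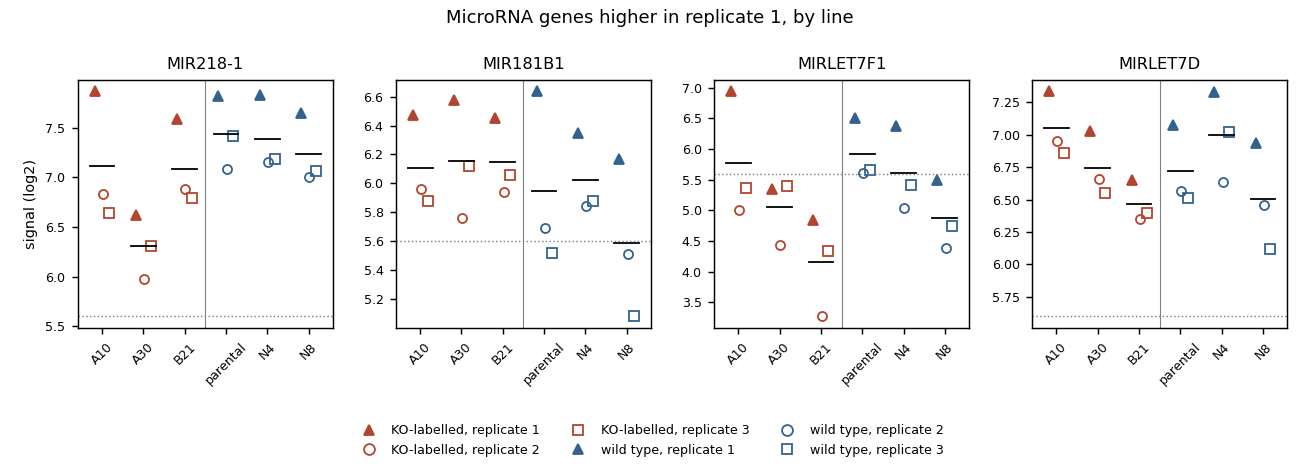
Signal (log2, each panel on its own scale) of 4 microRNA genes in each array, with KO-labelled lines left of the vertical line and wild-type lines right of it. Filled triangles are replicate 1, open circles replicate 2 and open squares replicate 3, black bars are line means and the dotted line is 5.6. Replicate 1 is the highest array of its line in every panel and line except MIRLET7F1 in A30, where replicate 3 is at 5.39 and replicate 1 at 5.34.

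Other higher members were MIR3143 (0.57 ± 0.08, limma adjusted p = 0.000444), MIRLET7D (0.47 ± 0.06, adjusted p = 0.000502) and the near-identical genes MIR548I2 and MIR548I1 (0.50 ± 0.06 and 0.49 ± 0.07), which may share probes. The MIR548 family, which is known to derive from transposable elements, rose in part. Of its 9 members, 6 were higher and 0 lower in replicate 1, with a median of 0.41. This family and the genes named in the next sentence were singled out after their values were seen. MIR15A was higher by 0.59 ± 0.10 and MIR23B by 0.37 ± 0.06 (limma adjusted p = 0.00143 and 0.00145). MIR454, at 0.65, is among the 39 but passed the threshold on replicate 1 arrays alone, so its call supports nothing. Beside MIR181B1, only MIR548I1 and MIR15A among the members had all 6 replicate 1 arrays above all 12 others, 3 members (1.02%) against 0.176% of all genes tested.

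The lower members differed less. MIR877, which is known to form from a whole short intron of ABCF1 without DROSHA, ran from 5.62 over 5.90 to 6.02 in replicate 1, and from 5.96 over 6.17 to 6.42 in replicates 2 and 3. It was lower in 6 of 6 lines, with overlapping sets of arrays and a difference of −0.30 ± 0.04 (limma adjusted p = 0.000611). MIR622 was lower by −0.42 ± 0.06, MIR181D by −0.19 ± 0.04, MIR4780 by −0.32 ± 0.08, MIR3620 by −0.28 ± 0.07 and MIR4632 by −0.43 ± 0.13. The largest adjusted p of these was 0.0345, for MIR4632, which had the lowest array of all at 4.52 in replicate 1 of the parental cells.

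No member passed a test of whether the replicate 1 difference itself was unlike between KO-labelled and wild-type lines. Limma called 0 of 295, against 0.0103% of all genes. An unadjusted p under 0.05 was found for 22 members (7.46%), against 7.89% of all genes. For MIRLET7F1 the replicate 1 difference was 0.09 larger in the KO-labelled lines (adjusted p = 0.968) and for MIR222 0.24 larger (adjusted p = 0.869). For MIR4521 this contrast was −0.95 (adjusted p = 0.381), and it passed only without replicate 1 of N8 (−1.38, adjusted p = 0.0319). Without replicate 1 of A10, which lay far from its line for MIR221, 37 members were called, 29 higher and 8 lower, and 33 of them were among the 47.

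The called members split by the base composition of their hairpins. A hairpin of a higher and one of a lower member are printed, with the mature parts in capitals. MIR590, with 35.1% G and C, was higher in replicate 1 by 0.42 ± 0.10, and MIR877, described above as lower, has 62.8%.
MIR590 hairpin: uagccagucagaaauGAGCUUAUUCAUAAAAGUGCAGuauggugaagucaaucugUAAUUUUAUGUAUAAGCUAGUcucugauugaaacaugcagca
MIR877 hairpin: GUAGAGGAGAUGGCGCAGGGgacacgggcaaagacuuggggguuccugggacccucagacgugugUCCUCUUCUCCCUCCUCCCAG
Hairpin entries existed for 26 of the 39 higher members and for 6 of the 8 lower. All 26 higher members had at most 54.3% G and C (median 44.5%), and the 6 lower ones had 59.9% to 76.8%. The 26 include MIR454 (39.1%) and MIRLET7F1 (40.2%), which would not have met the level rule without replicate 1 arrays. When the 246 hairpins were ordered by this measure and cut into 3 sets of 82, the lowest set held 26 higher and 0 lower members, the middle 0 and 2, and the highest 0 and 4. The median difference was 0.12 in the lowest set, −0.04 in the middle and −0.06 in the highest.

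The order held in each line for the lowest against the middle set. In A10 the median difference of replicate 1 was 0.21 in the lowest set, −0.11 in the middle and −0.14 in the highest. In A30 these medians were 0.13, 0.01 and −0.04, and in B21 0.11, 0.02 and 0.02. In the parental cells they were 0.13, −0.11 and −0.16, in N4 0.13, −0.07 and −0.05, and in N8 0.14, −0.02 and 0.01. Among members with low G and C content that were not called, MIR16-1 has 40.4% and differed by −0.10, MIRLET7A1 has 42.5% and differed by 0.17, and MIR4521 has 41.7% and differed by −0.06. These relations are across genes, which are not independent replicates, and the part of base composition in the replicate 1 difference was not tested.

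**Figure D2:**
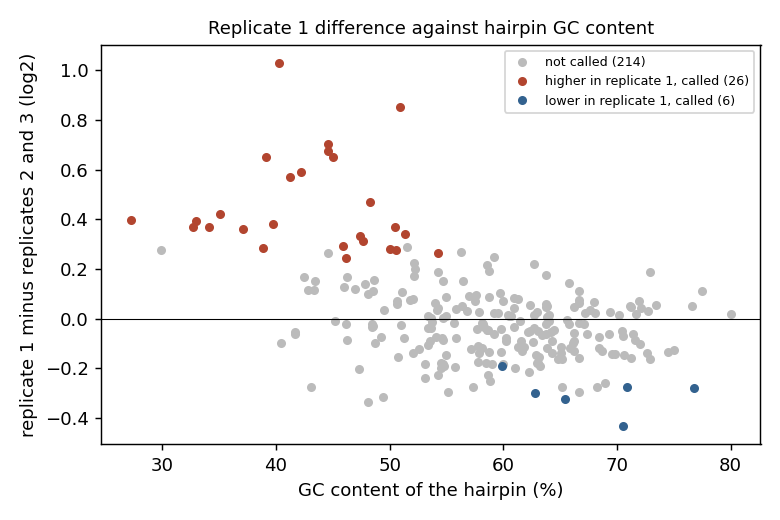
Replicate 1 minus replicates 2 and 3 (log2, vertical axis) against the G and C content of the hairpin (percent, horizontal axis) for the 246 microRNA genes with a hairpin entry. Red points are the 26 called higher, all at or below 54.3%, blue points the 6 called lower, all at or above 59.9%, and grey points the others.

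Some neighbouring or related genes had unlike replicate 1 values and others like ones. MIR222 and MIR221 are neighbours and share their seed, yet MIR221 differed by −0.20 ± 0.11 (SE, limma adjusted p = 0.207) where MIR222 differed by 0.85. In the let-7 cluster, MIRLET7F1 and MIRLET7D rose, while MIRLET7A1, the third of the neighbours, differed by 0.17 ± 0.16 (adjusted p = 0.498). Of the other 3 members with the let-7 seed, MIR98 differed by 0.12, MIRLET7A3 by 0.13 and MIRLET7E by 0.09, and none was called. MIR15A rose and its neighbour MIR16-1 differed by −0.10 ± 0.09 (adjusted p = 0.458).

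The miR-181 genes went both ways. MIR181B1 was higher by 0.67, MIR181D was lower by −0.19 ± 0.04 (limma adjusted p = 0.00815), and MIR181C differed by −0.20 ± 0.07 (adjusted p = 0.058). In the cluster of MIR23B and MIR27B both genes rose, by 0.37 and 0.33. Of the 14 groups of members within 10000 bases on one strand, this was the only one in which every member was called in replicate 1. These differences between neighbours were not themselves tested.

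MIR221 differed between lines. It was at 7.15, 8.22 and 8.15 in A10, 8.75, 8.46 and 8.87 in A30, and 8.59, 8.50 and 8.61 in B21, against 7.84, 8.06 and 8.07 in the parental cells, 7.21, 7.20 and 7.22 in N4 and 8.26, 8.22 and 8.46 in N8. N4 was the lowest line, with an SD of 0.01 between its arrays, A30 and B21 were the highest, and replicate 1 of A10 lay 1.00 below the nearest of the other KO-labelled arrays. The line means differed among the KO-labelled lines (limma F test, adjusted p = 0.00653) and among the wild-type lines (adjusted p = 0.00256). MIR222 passed neither test (adjusted p = 0.321 and 0.772).

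**Figure D3:**
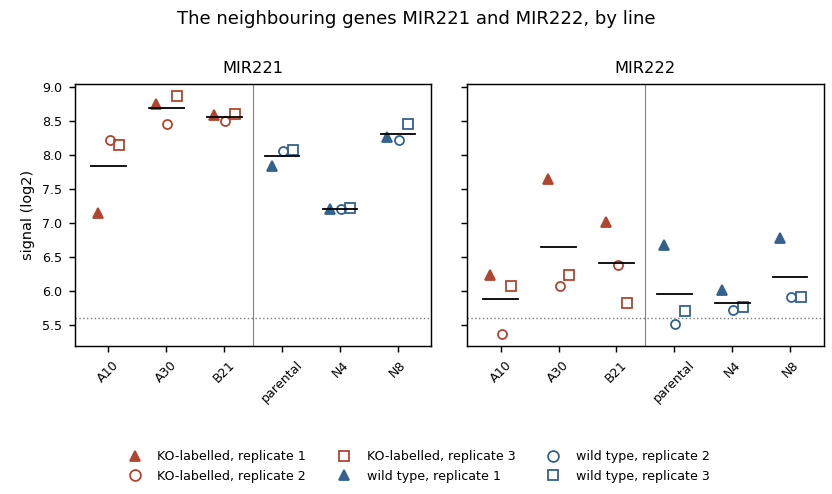
Signal (log2) of MIR221 (left) and MIR222 (right) in each array on one shared scale, with KO-labelled lines left of the vertical line. Filled triangles are replicate 1, open circles replicate 2, open squares replicate 3, and black bars line means. MIR221 differs by line, with N4 at 7.20 to 7.22, though arrays of several lines overlap. In MIR222 replicate 1 is the highest array of every line, though replicate 1 of A10 and of N4 lies below the highest array of replicates 2 and 3.

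Many members lie inside other genes. By the RefSeq annotation, 158 of the 246 matched members lie inside a gene on the same strand, and 87 of these have a host that was tested. Of the 26 higher members with an entry, 23 (88.5%) lie inside such a gene, against 131 of the 214 members that were not called (61.2%). The 23 include MIR454 and MIRLET7F1, which met the level rule only through replicate 1 arrays. Among the 15 higher members with a tested host, the members' median difference was 0.38 and that of the hosts 0.10. The members were selected on this difference and the hosts were not, so the gap is a description only. Limma called 2 of those hosts higher and 0 lower, where 8.74% and 9.81% of all genes were. They were SLIT2, at 0.40 beside MIR218-1 at 0.70, and SVIL, an actin-binding protein gene, at 0.28 beside MIR604 at 0.26. Outside the called members a host could be the higher one, as FOXP2, a transcription factor gene, at 0.42 beside MIR3666 at 0.16, a pair chosen after its values were seen. EIF4H, a translation factor gene, was at −0.04 beside MIR590 at 0.42. MIR181A1HG, the non-coding host of MIR181B1, was at 0.12 beside 0.67.

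Between the genotypes, 0 of 295 members were called on the means of 3 lines against 3, as were 0 of all 9686 genes (0%). At an unadjusted p under 0.05 there were 27 members (9.15%) and 937 genes (9.67%). Differences ran from −0.60 to 0.95 over the members, 5 exceeded 0.5 in size, and the median was 0.05, against 0.00 over all genes. The line means did not overlap for 42 members. In 30 of them (10.2%) all KO-labelled lines were above all wild-type lines, against 7.37% of all genes, and in 12 (4.07%) all were below, against 7.22% of all genes.

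MIR4521 had the smallest p of the members. It was at 8.32, 8.91 and 9.06 in A10, at 8.0, 8.12 and 8.55 in A30, and at 7.66, 8.28 and 8.28 in B21, against 8.10, 7.21 and 6.81 in the parental cells, 7.71, 7.10 and 7.15 in N4, and 7.23, 7.69 and 7.64 in N8. All 3 KO-labelled line means lay above all 3 wild-type means, but single arrays overlapped: replicate 1 of B21 and of A30 lay below replicate 1 of the parental cells, and replicate 1 of B21 also below replicate 1 of N4 and replicate 2 of N8. The lines averaged 8.35 ± 0.36 in the KO-labelled and 7.40 ± 0.10 in the wild-type group (SD, n = 3 lines each). The difference of 0.95 ± 0.16 (SE), or 1.93-fold, did not pass over all genes (limma adjusted p = 0.184).

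The MIR4521 difference varied in size with the replicates and lines used. It was 0.31 in replicate 1 alone (limma adjusted p = 0.79) and 1.27 in replicates 2 and 3 (adjusted p = 0.155). The direct contrast of replicate 1 between the genotypes, given above, was not called for this gene with all arrays. Without line A10 it was 0.74 and passed (adjusted p = 0.0239), as did MIR3198-1 at −0.80 (adjusted p = 0.0337), and these 2 were then the only members called. The gene was chosen with this difference known, so its values are a description of these lines.

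MIR604 and MIR3198-1 followed. MIR604 was at 6.82, 7.02 and 7.06 in A10, A30 and B21 as line means, against 6.52, 6.65 and 6.57 in the parental, N4 and N8 lines, a difference of 0.38 ± 0.09 (SE, limma adjusted p = 0.322). Its host SVIL differed by 0.35 (adjusted p = 0.468). MIR3198-1, inside the apoptosis gene BID, was at 6.46, 5.91 and 5.82 in A10, A30 and B21, against 6.86, 6.65 and 6.47 in the parental, N4 and N8 lines, a difference of −0.60 ± 0.17 (adjusted p = 0.436), and BID differed by −0.07. In MIR3198-1 the A10 mean lay within 0.01 of N8, and in both genes the line means of the genotypes were separate. The genes that were higher in replicate 1 had these genotype differences, none of them called. MIR181B1 differed by 0.28, MIR222 by 0.32, MIRLET7F1 by −0.48 and MIR218-1 by −0.52, with adjusted p of 0.472 to 0.717.

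**Figure D4:**
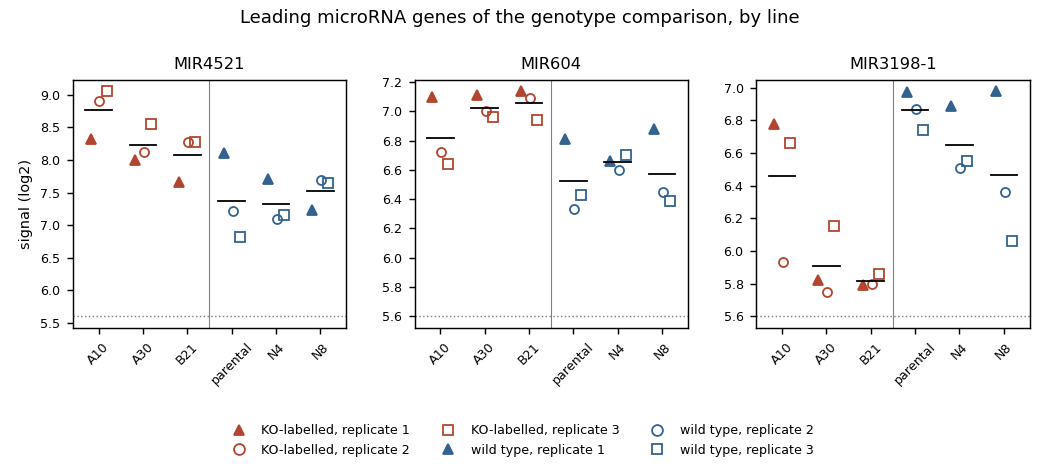
Signal (log2) of MIR4521, MIR604 and MIR3198-1 in each array (each panel on its own scale), with KO-labelled lines left of the vertical line and wild-type lines right of it. Symbols mark the replicate number as in the key, black bars are line means and the dotted line is 5.6. MIR4521 is higher in every KO-labelled line mean (8.07 to 8.76) than in every wild-type one (7.32 to 7.52), with overlap between single arrays.

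Separate tests compared A10, A30 and B21 with the 3 wild-type lines. They share the same wild-type arrays, run on arrays and cover the spread between arrays of a clone. The replicate number is not a term in these fits, nor in those of N4, N8 and the F tests below. Counts with it as a block are given in the last section. In A10, 5 members were called where 8.4% of all genes were, 4 higher (1.36%, against 3.84% of all genes) and 1 lower (0.339%, against 4.56%). MIR4521 was higher by 1.36 ± 0.23 (SE, limma adjusted p = 0.00141), MIR3620 by 0.58 ± 0.13, MIR4316 by 0.42 ± 0.12 and MIR3622A by 0.35 ± 0.10, and MIR4437 was lower by −0.38 ± 0.10. The count was 15 without replicate 1 of A10, 1 without its replicate 2 or its replicate 3, and 3 without replicate 3 of the parental cells, replicate 3 of N4 or replicate 2 of N8. MIR4521 was called in each of these 5 smaller sets.

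In A30, 36 members were called where 29.3% of all genes were. Of these, 29 were higher (9.83%, against 12.9% of all genes) and 7 lower (2.37%, against 16.3%). MIR221 led with 0.86 ± 0.16 (SE, limma adjusted p = 0.000598), followed by MIR3939 (0.48 ± 0.09), MIR4458 (0.44 ± 0.09), MIR647 (0.30 ± 0.07) and MIR619 (0.28 ± 0.07). MIR619 passed the threshold on arrays of KO-labelled lines alone, so its call is in part set by the rule and supports nothing. MIR4521 was higher by 0.82 ± 0.23 (adjusted p = 0.0127). The count was 20 without replicate 1 of A30 and 23 without its replicate 2.

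Of the 7 lower members in A30, 5 lie on chromosome 4. They were MIR218-1 (−1.05 ± 0.25), MIR4451 (−0.69 ± 0.18), MIR573 (−0.68 ± 0.14), MIR571 (−0.41 ± 0.15) and MIR575 (−0.38 ± 0.12), with limma adjusted p of 0.00143 to 0.0467. MIR218-1 was at 6.62, 5.98 and 6.31 in A30, against 7.0 to 7.83 in the 9 wild-type arrays, and the groups did not overlap. The 9 members of this chromosome had a median of −0.38, and the other 334 genes tested on it −0.40, of which 248 (74.3%) were called lower. The other members there were MIR4453 at −0.16, MIR4450 at −0.02, MIR574 at 0.05 and MIR1269A, which was higher by 0.36 ± 0.13 (adjusted p = 0.0432). The remaining lower members were MIR3198-1 on chromosome 22 (−0.75 ± 0.17) and MIR5047 (−0.31 ± 0.08).

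Several called members in A30 lie in hosts with a difference of the same sign. MIR218-1 at −1.05 lies in SLIT2 at −1.06. MIR4451 at −0.69 lies in ARHGAP24 at −0.53, and MIR575 at −0.38 in SCD5, a fatty acid desaturase gene, at −0.81. MIR571 at −0.41 lies in ZNF141, a zinc finger gene, at −1.47. On the higher side, MIR23C at 1.12 lies in MAP7D2, a microtubule-binding protein gene, at 1.20. Of the 5 lower members with a tested host, 4 hosts were called lower, where 16.3% of all genes were. Those 4 pairs are all on chromosome 4, where 74.3% of the other genes were lower. Of the 9 higher members with a tested host, 4 hosts were called higher and 2 lower, where 12.9% and 16.3% of all genes were. MIR23C and MAP7D2 were also both lower in N8, at −1.09 and −0.97 against the parental cells. MIR23C is one of the dimmest members, with a mean below 5.6, so the size of its differences is uncertain.

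**Figure D5:**
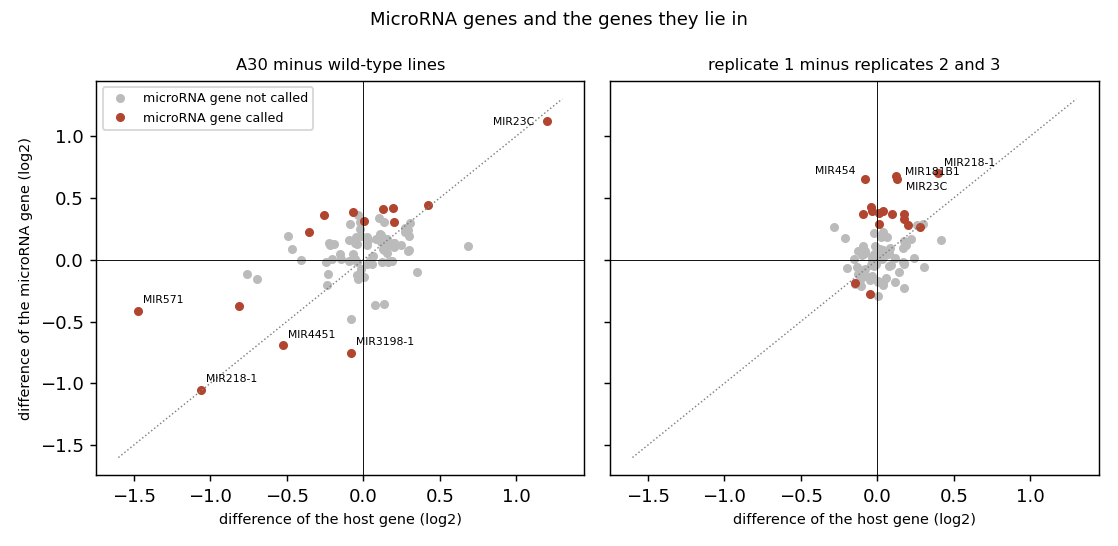
Difference of a microRNA gene (log2, vertical axis) against that of the gene it lies in on the same strand (log2, horizontal axis), for 87 pairs, in A30 against the wild-type lines (left) and replicate 1 against replicates 2 and 3 (right). Red points are microRNA genes called by limma, and the dotted line marks equal differences. On the left MIR218-1 (−1.05 and −1.06) and MIR23C (1.12 and 1.20) lie on that line, and on the right most called members lie above it, with a host median of 0.10 and a member median of 0.38 over the 15 called higher.

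In B21, 11 members were called where 16% of all genes were, 7 higher (2.37%, against 8.82% of all genes) and 4 lower (1.36%, against 7.2%). MIR622 was higher by 0.83 ± 0.16 (SE, limma adjusted p = 0.00225), MIR221 by 0.73 ± 0.16, MIR604 by 0.47 ± 0.11, MIR596 by 0.38 ± 0.11, MIR3939 by 0.32 ± 0.09 and MIR647 by 0.29 ± 0.07. Lower were MIRLET7F1 by −1.32 ± 0.40 (adjusted p = 0.0339), MIR3198-1 by −0.84 ± 0.17, MIR3685 by −0.62 ± 0.14 and MIR3135A by −0.57 ± 0.17. MIRLET7F1 ran from 3.27 to 4.84 in B21 and from 4.38 to 6.51 in the wild-type arrays, which overlap. The count was 18 without replicate 1 of A10, 4 without replicate 2 of B21 and 7 without its replicate 3.

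Against the parental cells, N8 and N4 gave the following calls. In N8, 10 members were called where 14.7% of all genes were, 4 higher (1.36%, against 7.67% of all genes) and 6 lower (2.03%, against 7.03%). MIR23C was at 4.45, 4.16 and 3.8 in N8, against 5.53, 4.89 and 5.26 in the parental cells, and the groups did not overlap (−1.09 ± 0.33 SE, limma adjusted p = 0.0344). All of these arrays lay below 5.6, so the size of this difference is uncertain. MIR3671 was lower by −0.66 ± 0.19, MIR7-1 by −0.65 ± 0.14, MIR579 by −0.64 ± 0.18, MIR5047 by −0.47 ± 0.10 and MIR619 by −0.25 ± 0.08. For MIR619 no wild-type array was above 5.6. MIR4525 was higher by 0.53 ± 0.15, MIR1238 by 0.48 ± 0.15, MIR1301 by 0.28 ± 0.09 and MIR4737 by 0.24 ± 0.07. The count was 4 without replicate 1 of the parental cells, 5 without its replicate 3 or without replicate 3 of N8, and 6 without replicate 1 of N8.

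In N4, 0 members were called against the parental cells, with 0.547% of all genes called by limma (0.206% higher and 0.341% lower). At an unadjusted p under 0.05 there were 24 members (8.14%), against 13.2% of all genes. MIR221 came nearest, at −0.78 ± 0.19 (adjusted p = 0.0772), and it was called without replicate 1 of A10 (adjusted p = 0.000777). With the replicate number as a block, limma called MIR221 and MIR147A (adjusted p = 0.0427 and 0.0393), although the numbers were not shown to pair the arrays. Over all lines, the F tests called 11 members (3.73%, against 25.8% of all genes) among the KO-labelled lines and 12 (4.07%, against 16.1%) among the wild-type lines. The widest line-mean ranges among those called were 0.85 for MIR221 and 0.85 for MIR4653 in the KO-labelled lines, and 1.39 for MIR23C and 1.10 for MIR221 in the wild-type lines. The KO-labelled count was 17 without replicate 1 of A10, 21 without replicate 3 of A30, 7 without replicate 3 of B21, 6 without replicate 3 of A10 or replicate 1 of A30, and 5 without replicate 2 of B21. The wild-type count was 7 without replicate 3 of the parental cells or replicate 2 of N4, 6 without replicate 3 of N4 and 5 without replicate 2 of N8.

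Of 30 genes of the processing machinery, which make and use microRNAs, 17 were tested. By genotype 0 were called, as for all genes, 9 had a positive difference and the median was 0.01. Between replicate 1 and the others, 3 of the 17 rose and 4 fell, where 8.74% of all genes rose and 9.81% fell. The risers were TNRC6B, an Argonaute-binding silencing factor, by 0.23 ± 0.05, DDX17, a DROSHA cofactor, by 0.19 ± 0.03, and XRN1, an RNA exonuclease, by 0.18 ± 0.05. Lower were LIN28B, which blocks let-7 maturation, by −0.22 ± 0.07, TARBP2, the partner of DICER1, by −0.16 ± 0.05, XPO5 by −0.15 ± 0.04 and XRN2 by −0.12 ± 0.04, with limma adjusted p of 0.00286 to 0.0456 over the 7. In A30, where 29.3% of all genes were called, 5 of the 17 were: TENT2 (0.27), SND1 (0.20) and KHSRP (0.18) were higher and XRN2 (−0.33) and DDX5 (−0.19) lower. In B21, where 7.2% of all genes were lower, 1 was, XRN2 (−0.26). In N8 against the parental cells, where 7.03% were lower, 3 were: HNRNPA1 (−0.31), SND1 (−0.21) and DDX5 (−0.18).

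Of 19 known let-7 targets, 13 were tested. In replicate 1, where 8.74% of all genes were called higher and 9.81% lower, 0 of the 13 were higher and 3 lower: LIN28B, CDC25A by −0.16 ± 0.05 and CDC34 by −0.14 ± 0.04, both cell cycle genes. The list's median was −0.04, against −0.01 for all genes tested. By genotype 0 were called. The lowest were MYC at −1.12 ± 0.26 (limma adjusted p = 0.312) and HMGA1 at −0.43 ± 0.12 (adjusted p = 0.408). Against the wild-type lines, MYC was called lower in A10 (−0.95), A30 (−1.70) and B21 (−0.70), and HMGA1 lower in A30 (−0.63) and B21 (−0.47). MYC was also lower in N8 than in the parental cells (−0.72). CCND2 was lower in A10 and A30 and IGF2BP2 in A30, and HMGA2, CDK6 and CCND1 were higher in B21. In A10, 0 of the 13 were called higher and 2 lower, where 3.84% and 4.56% of all genes were. In A30 the counts were 0 and 4, where 12.9% and 16.3% of all genes were called. In B21 they were 3 and 2, where 8.82% and 7.2% of all genes were called. Of 10 known targets of miR-221 and miR-222, 6 were tested, with 0 calls by genotype or replicate 1. By genotype, TIMP3, a metalloproteinase inhibitor gene, was at 0.52 ± 0.22 (limma adjusted p = 0.509) and DDIT4, a stress-induced growth inhibitor gene, at −0.52 ± 0.10 (adjusted p = 0.31). Against the wild-type lines, TIMP3 was called higher in A30 (0.81) and B21 (0.59), and DDIT4 lower in A10 (−0.69), A30 (−0.48) and B21 (−0.37). TIMP3 was also called lower in N8 than in the parental cells (−0.61), so it differed among the wild-type lines too. The other calls of this list against the wild-type lines were all lower: KIT in A10, BBC3 in A30 and B21, and BMF in B21. Of the 6 tested, 0 were higher and 2 lower in A10, 1 and 2 in A30, and 1 and 3 in B21. The shares over all genes in these lines are those given above for the let-7 targets.

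Of 20 non-coding host transcripts, 4 were tested, and MIR17HG, which carries the miR-17 to miR-92 cluster, was called higher in replicate 1 (0.31 ± 0.07, limma adjusted p = 0.00603). MIR181A1HG differed by 0.12 ± 0.08 there and by 0.26 ± 0.08 between the genotypes (adjusted p = 0.289 and 0.468). MIR222HG, MIRLET7A1HG and DLEU2, the annotated hosts of MIR222, of the let-7 cluster and of MIR15A, were not tested.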

How the data were processed

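Total RNA of 18 HEK samples, 3 of each of 6 lines, was hybridised to 1 array each. The deposited values are log2 signals, 1 per probe set. Per the submitters' processing notes the authors used Affymetrix Expression Console; its version and settings are not stated. They run from 0.57 to 14.84, a log2 range, and entered the fits unchanged. Precision is limited by the number of arrays. Of 53617 probe sets, 16098 carried 1 gene symbol, 0 several and 37519 none in the platform annotation, and per gene the probe set with the highest mean was kept (48 members had several). Genes with at least 3 arrays above 5.6 were tested, 9686 in all. The microRNA genes, lists and markers were chosen with earlier results of these data known, and genes named are the 5 markers (MIR4521, MIR222, MIRLET7F1, MIR181B1, MIR218-1), ATXN1L, the brightest and dimmest members, those nearest the threshold, up to 6 called members per comparison and direction by smallest p (otherwise the 3 with the smallest p), relatives and neighbours of the markers, hosts, and called genes of the lists. Members named beyond that were chosen after their values were seen.

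All tests were two-sided in limma 3.58.1 (R 4.3.3), fitted over all genes tested with Benjamini-Hochberg adjustment, and called at an adjusted p under 0.05. Genotype was fitted on line means (3 against 3), other comparisons on arrays. Sequences came from RefSeq tables for GRCh38.p14, and hosts and neighbours from the RefSeq gene table. The build of the array annotation is not named, so no other coordinates are given. Alternatives covered the filter, normalisation, choice of probe set, variance model, a replicate block, single replicate numbers, and leaving out each array and line. The fits were tested on simulated data. Figures used matplotlib 3.10.9, with pandas 2.3.3 and numpy 2.4.6.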

Additional observations from a re-analysis of the deposited data

Results flagged for a closer look

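In 126 groups of arrays of the named members, 10 held an array far from the rest by Dixon's ratio at the 95% level. Chance flags about 1 in 20 such groups. Replicate 1 of the parental cells accounted for 5 of the 10. It was the lowest of the 9 wild-type arrays for MIR1238 (6.94, next 7.60), and with the same value the lowest of the 6 replicate 1 arrays (next 7.93). It was also the lowest wild-type array for MIR4632 (4.52, next 5.37), the lowest replicate 1 array for MIR4525 (7.64, next 8.36) and the highest wild-type array for MIR3143 (9.65, next 9.02).

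In A30, replicate 1 was the lowest of the replicate 1 arrays for 2 chromosome 4 genes, MIR218-1 (6.62, next 7.59) and MIR573 (6.22, next 6.86), and replicate 2 was the lowest KO-labelled array for MIR7-1 (5.48, next 5.69). Replicate 1 of A10 was the lowest KO-labelled array for MIR221 (7.15, next 8.15). Replicate 2 of N4 was the highest wild-type array for MIR3622A (6.94, next 6.53). What sets these arrays apart was not tested.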

How the results depend on the processing

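Of 283 recomputed counts of called members, 244 stayed within 1.5 times the value reported, and of 308 recomputed differences of the 5 markers 301 kept their sign and side of the threshold. The replicate 1 count of 47 ran from 37 to 58 without single arrays and the replicate 1 differences of MIR218-1, MIR181B1, MIRLET7F1 and MIR222 passed in every alternative run. MIR4521 turned sign in replicate 1 (−0.06) to 0.011 without line N8 or its replicate 1, 0.057 without line A10 or its replicate 1, and 0.048 without line B21 or its replicate 1, ran down to −0.29 without single arrays, and passed in neither direction. Its genotype difference ran from 0.31 to 1.27. The genotype count was 2 without line A10. A10 gave 3 members with no filter on low values. With replicates 2 and 3 alone, an alternative chosen after seeing the data, the counts were 18 in A10, 19 in B21, 1 in N4 (MIR221) and 27 among the KO-labelled lines. With the replicate block, although the numbers were not shown to pair the arrays, the counts were 14 in A10, 20 in B21, 2 in N4 (MIR147A and MIR221), 21 in N8, 31 among the KO-labelled and 26 among the wild-type lines, and A30 stayed within 1.5 times its count. The recomputed counts in this section are given without the shares over all genes. A change in them is therefore no result about microRNA genes in particular. Deviations from the line means correlated above 0.1 in 15 of 15 pairs of arrays numbered 1, 14 of 15 numbered 2 and 10 of 15 numbered 3. Of 18 arrays, 15 correlated best with a same-numbered one, a hint from the data only. Without single arrays the counts ran from 1 to 15 in A10, 20 to 50 in A30, 4 to 18 in B21, 0 to 1 in N4, 4 to 15 in N8, 5 to 21 among the KO-labelled lines, 5 to 17 among the wild-type lines, 0 to 1 for the difference between genotypes in replicate 1, and stayed at 0 for genotype and for replicate 2 against 3. Cultures and clones are few, signals near 5.6 are noisy, and the array does not separate mature microRNA from its precursor.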
